A study of Mus musculus with 36 samples.

Results

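The genes described here encode the transcription factor Nrf2 (Nfe2l2), its relative Nrf1 (Nfe2l1), the Nrf2 inhibitor Keap1, the competing repressor Bach1, the DNA-binding partners Mafg and Mafk, and 3 proteins tied to Keap1 or to the clearance of mitochondria (Sqstm1, Cul3 and Tbc1d15). Members were the rows whose gene symbol equals a listed name, which gave 9 of the 19879 genes in the deposited tables. RNA was measured in BV-2 cells, an immortalised line of mouse microglia that the labels call wild-type, in 36 libraries that form 12 groups of 3. Cells were exposed for 4 h or 24 h to DMSO, to ethanol (EtOH), to lipopolysaccharide (LPS, a bacterial activator of microglia, at 600 ng/mL), or to LPS and a drug. The drugs were DMF (dimethyl fumarate) and MMF (monomethyl fumarate), each at 30 µM, and CBD (cannabidiol) at 6 µM. Vehicles were kept at 0.2%, with DMSO as the solvent of both fumarates and EtOH that of CBD. Serum was lowered just before treatment in every group used here. No group received a drug without LPS, and the labels do not say which vehicle accompanied LPS alone. All groups come from the same immortalised line, so p-values describe the spread between repeated cultures of it, and RNA per cell cannot be told apart from cell number in such bulk material.

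Nrf2 and Nrf1 belong to the cap'n'collar family of leucine zipper factors, which bind antioxidant response elements (AREs) only when paired with a small Maf protein. Keap1 joins Nrf2 to the ubiquitin ligase built on the scaffold Cul3, so that Nrf2 protein is degraded continuously, and electrophiles such as fumarates modify cysteines of Keap1 and let Nrf2 accumulate. Bach1, which is released from DNA by haem, occupies the same elements with the same small Maf partners and represses genes such as Hmox1. The protein p62, encoded by Sqstm1, binds Keap1 and carries cargo to autophagosomes, and Tbc1d15 is a GTPase-activating protein for Rab7 that acts at mitochondria. Much of this regulation takes place on protein, which RNA does not measure.

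Depth ran from 14110424 to 26676607 assigned reads per library, and 14594 to 15506 genes were detected. Each member was read with at least 481 reads in every library, so all 9 passed the filter on low values in every comparison. All 12 microglial markers examined had a median above 1 TPM (a transcript level scaled to gene length and library size), from 3.82 TPM to 1280 TPM. Of the markers of other cell types, those above 1 TPM were 1 of 5 for neurons (Map2, 2.32 TPM), 0 of 3 for astrocytes and 1 of 4 for endothelium and fibroblasts (Pecam1, 2.03 TPM). The oligodendrocyte gene Mbp was at 31.9 TPM. The defining neuronal genes Snap25 and Syt1 and the astrocyte gene Aqp4 were listed in no table.

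All members are protein coding, with positions on GRCm39 as the deposited tables give them. Nfe2l2 (ENSMUSG00000015839) lies on chromosome 2 from 75505857 to 75534985 and Nfe2l1 (ENSMUSG00000038615) on chromosome 11 from 96708240 to 96720794. Keap1 (ENSMUSG00000003308) lies on chromosome 9 from 21141026 to 21150657 and Cul3 (ENSMUSG00000004364) on chromosome 1 from 80242640 to 80318197. Bach1 (ENSMUSG00000025612) was placed on chromosome 16 from 87495833 to 87530234, Mafg (ENSMUSG00000051510) on chromosome 11 from 120515943 to 120524426 and Mafk (ENSMUSG00000018143) on chromosome 5 from 139777268 to 139788408. Sqstm1 (ENSMUSG00000015837) spans 50090193 to 50101654 on chromosome 11, and Tbc1d15 (ENSMUSG00000020130) spans 115033777 to 115087372 on chromosome 10. The counting strand was not stated, and some exons are shared with neighbours in GENCODE. Exons of Mrnip on the opposite strand (mean normalized count 37.0) cover 17.2% of Sqstm1 exon sequence, and those of Tmem184a (mean count 8.77) cover 16.1% of Mafk. Non-coding genes on the opposite strand, without a count of their own, cover 14.9% (Gm68155) and 10.9% (Gm16754) of Keap1. Others cover 5.09% of Nfe2l2 (E030042O20Rik) and 4.95% (Gm72612) and 2.90% (Gm17586) of Mafg. The effect of shared exons on the counts was not tested. The more highly read neighbours share little, at 1.72% of Sqstm1 for Mgat4b (mean count 1204) and 1.47% of Mafg for Sirt7 (mean count 990.2).

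Promoters of 4 transcription factor genes are shown because Nrf2 and Bach1 act through AREs and these genes were called with DMF at 4 h. Bach1, Mafg and Mafk were higher there and Nfe2l2 was lower. The core of the element was searched as TGACNNNGC on both strands, from 250 bases before to 50 bases after each annotated start, in sequences from RefSeq (table build GRCm38.p6). The core was found for Nfe2l2, Mafg and Mafk, each with 1 match, and in no window of Nfe2l1 (5 windows), Keap1, Bach1, Sqstm1, Cul3 or Tbc1d15. Across 32851 promoters in the same table, 12.4% held the core, and 14.0% of the 27025 genes held it in at least 1 window. The AP-1 element, searched as TGANTCA, was in 7.81% of promoters and in no window of a member. A site can satisfy both patterns, because the free bases of the core may begin with TCA. Below, each window was placed on GRCm39 by an exact match, bases are written 5′ to 3′ along the gene, and capitals mark the core where there is one. Only bases ahead of any GENCODE exon of the gene are printed, except for Mafk, whose core begins 13 bases before the start and is shown with its flanks. In Nfe2l2 the core begins 240 bases before the start on the gene's own strand, and in Mafg 222 bases before the start on the opposite strand, as in Mafk. The Bach1 stretch is shown as the promoter of a gene that moved with Mafg yet held no match.
Nfe2l2 (chr2:75535008-75535257, minus strand): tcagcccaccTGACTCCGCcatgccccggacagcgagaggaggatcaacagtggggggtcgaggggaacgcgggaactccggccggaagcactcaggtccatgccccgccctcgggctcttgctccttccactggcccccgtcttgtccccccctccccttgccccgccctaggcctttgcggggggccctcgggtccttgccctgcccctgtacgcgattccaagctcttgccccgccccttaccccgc
Mafg (chr11:120524531-120524623, minus strand): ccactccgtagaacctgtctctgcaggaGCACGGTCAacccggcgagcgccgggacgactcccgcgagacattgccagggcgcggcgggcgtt
Mafk (chr5:139777261-139777290, plus strand): gacgcgcgatcccggaaGCGGTGTCAgtac
Bach1 (chr16:87495592-87495781, plus strand): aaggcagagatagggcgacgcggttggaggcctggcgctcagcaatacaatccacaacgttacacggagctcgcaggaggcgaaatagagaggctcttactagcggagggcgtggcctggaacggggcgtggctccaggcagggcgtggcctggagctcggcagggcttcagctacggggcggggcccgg

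Levels per length differed widely between the members. Sqstm1 was the most abundant, with group means from 180.5 to 1659 TPM (median of groups 397 TPM). Nfe2l1 had a median of 153 TPM, Mafg 136 TPM, Nfe2l2 123 TPM and Cul3 109 TPM. Keap1 at 74.6 TPM and Mafk at 66.4 TPM lay lower, and Bach1 at 35.3 TPM and Tbc1d15 at 34.7 TPM were the least abundant.

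Across the 12 groups the transcript of Nrf2 itself was among the steadiest, and that of p62 varied most. As normalized counts, in which all 36 libraries share 1 scaling, the highest group mean of Sqstm1 was 9.48 times the lowest. This ratio was 3.20 for Nfe2l1, 2.66 for Bach1, 1.83 for Mafk, 1.80 for Mafg, 1.69 for Cul3, 1.59 for Keap1, 1.41 for Nfe2l2 and 1.37 for Tbc1d15. When groups were ordered by their mean, 6 of 11 neighbouring pairs had libraries that did not overlap for Sqstm1, 4 for Nfe2l1 and for Mafk, 3 for Mafg and for Cul3, and 1 for Bach1 and for Tbc1d15. For Nfe2l2 and Keap1 every neighbouring pair overlapped. The median coefficient of variation within groups ran from 3.11% for Cul3 to 15.8% for Bach1.

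**Figure D1:**
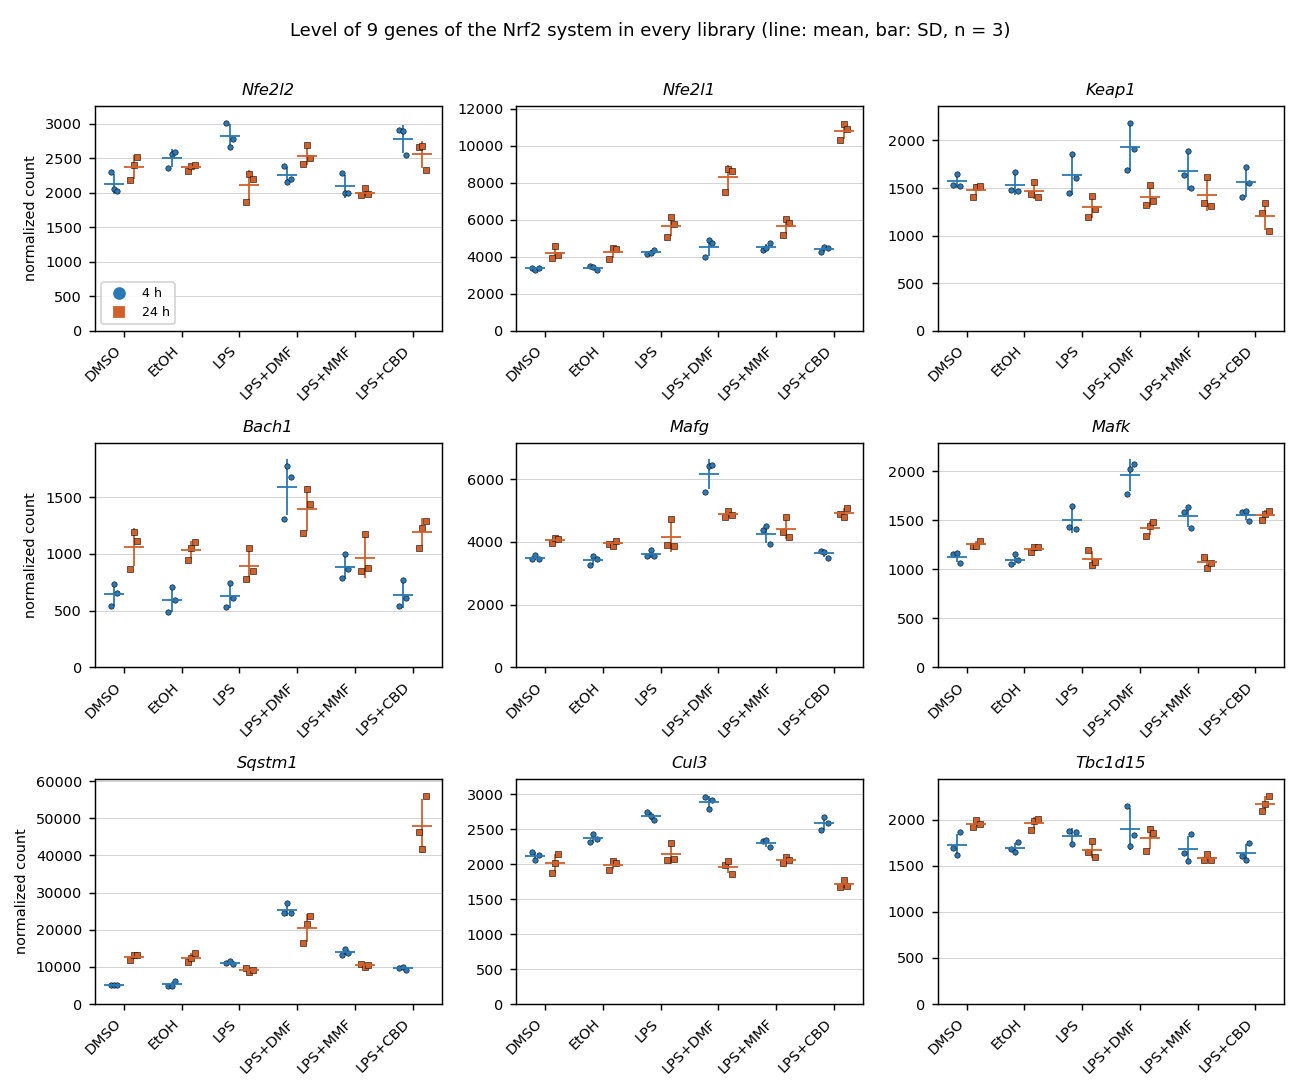
Normalized count (linear axis from 0, all 36 libraries scaled together) of the 9 genes by treatment at 4 h (blue circles) and 24 h (orange squares), with 1 point per library, a line at the mean and a bar of 1 SD (n = 3). Sqstm1 stands highest in LPS with CBD at 24 h, at 41753 to 56038, while Nfe2l2 stays between 1872 and 3018 in all libraries.

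The first comparison asked how LPS alone changed these genes relative to each vehicle, with the same LPS libraries in both contrasts. All LPS libraries carry other replicate numbers than the vehicle libraries. A change with LPS therefore cannot be told apart from a difference between these sets of replicates, which was not tested. This holds for every contrast of LPS with a vehicle below, and small changes are the least certain. At 4 h Sqstm1, Nfe2l1 and Mafk were higher in LPS than in both vehicles, and Nfe2l2 and Cul3 were higher than in DMSO. Keap1, Bach1, Mafg and Tbc1d15 were not called. The test was limma on log2(normalized count + 1) over all genes, with a call at an adjusted p below 0.05, and all fold changes below are on that scale. Against DMSO 5 of 9 members were called higher and 0 lower, beside 14.1% of all tested genes called in either direction, and against EtOH 3 were higher and 0 lower, beside 10.2%. The median change of the members was 0.32 and 0.17, respectively, against a median of 0.00 over all genes in both.

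Sqstm1 was read at 5018, 4995 and 5185 normalized counts in DMSO at 4 h and at 11073, 11609 and 10714 in LPS. In EtOH its counts were 4892, 4975 and 6169. Every LPS library lay above every vehicle library, and EtOH replicate 6 was the highest vehicle library. The log2 fold change was 1.13 ± 0.06 (SE) against DMSO (adjusted p = 2.85e-05) and 1.07 ± 0.10 against EtOH (adjusted p = 0.000445).

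Nfe2l2 counts at 4 h were 2301, 2059 and 2032 in DMSO, 2359, 2561 and 2597 in EtOH, and 3018, 2662 and 2774 in LPS. The LPS libraries were above all vehicle libraries, with the EtOH libraries between the others. The change was 0.40 ± 0.07 against DMSO (adjusted p = 0.00975) and 0.17 ± 0.07 against EtOH (adjusted p = 0.181). Without DMSO replicate 6 the call against DMSO was lost (adjusted p = 0.0581). The vehicles themselves differed in no member by limma at 4 h (0 of 9 called, beside 0% of all genes), and edgeR and DESeq2 also called 0. In that limma fit 2 members had an unadjusted p under 0.05, beside 1051 of 11458 genes. With replicate number as a block, Nfe2l2 was lower in DMSO than in EtOH by 0.23 (log2 fold change -0.23, adjusted p = 0.0221) and Cul3 was lower as well (-0.15, adjusted p = 0.0405), in a fit that called 7.65% of all genes. At 24 h the vehicles again differed in 0 of 9 members, beside 0.00854% of all genes, and 0 were called by edgeR or DESeq2. At an unadjusted p under 0.05 there were 0 members, beside 430 of 11715 genes.

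Nfe2l1, whose product Nrf1 is anchored in the endoplasmic reticulum and drives proteasome genes, had counts of 3421, 3303 and 3406 in DMSO, 3518, 3428 and 3301 in EtOH and 4163, 4186 and 4376 in LPS at 4 h. The LPS libraries did not overlap the vehicles. Its change was 0.32 ± 0.06 against DMSO (adjusted p = 0.00829) and 0.31 ± 0.06 against EtOH (adjusted p = 0.0106), and both calls were lost without LPS replicate 3 (adjusted p = 0.0572 and 0.0660), the second also without EtOH replicate 6 (adjusted p = 0.0645). Mafk counts rose from 1161, 1167 and 1066 in DMSO and 1051, 1155 and 1093 in EtOH to 1438, 1645 and 1416 in LPS. No library overlapped. The change was 0.40 ± 0.08 (adjusted p = 0.0149) and 0.45 ± 0.08 (adjusted p = 0.0111), lost against DMSO without its replicate 6 (adjusted p = 0.0779) and against EtOH without its replicate 4 or 6 (adjusted p = 0.0578 and 0.0568). Cul3 had counts of 2742, 2692 and 2634 in LPS, above those in DMSO (2172, 2061 and 2129.9) and EtOH (2318, 2434 and 2354), with changes of 0.34 ± 0.06 (adjusted p = 0.00713) and 0.18 ± 0.06 (adjusted p = 0.0778).

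After 24 h with LPS the picture differed, with Nfe2l1 higher and Sqstm1 now lower than in the vehicles, and no other member called by limma. Thus 1 member was higher and 1 lower against each vehicle, beside 22.7% of all genes called against DMSO and 20.5% against EtOH. The count of members called was near these shares. Nfe2l1 counts were 3934, 4577 and 4116 in DMSO, 3865, 4453 and 4418 in EtOH and 5072, 6171 and 5784 in LPS. These LPS libraries all exceeded the vehicles, by 0.44 ± 0.09 (adjusted p = 0.00478) and 0.43 ± 0.09 (adjusted p = 0.00714). Sqstm1 counts were 11969, 13163 and 13165 in DMSO, 11238, 12328 and 13855 in EtOH and only 9563, 8691 and 9069.6 in LPS. Here the LPS libraries were all below the vehicles, with changes of -0.47 ± 0.07 (adjusted p = 0.00102) and -0.44 ± 0.09 (adjusted p = 0.00516).

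Tbc1d15 at 24 h gave -0.21 ± 0.07 against DMSO (adjusted p = 0.0522) and -0.22 ± 0.08 against EtOH (adjusted p = 0.0630), with every LPS library below the vehicles. It was called by edgeR against both (adjusted p = 0.0375 and 0.0471), in the fit over all 36 libraries (0.0245 and 0.0235) and, against DMSO, with TMM scaling (0.0459). Without LPS replicate 2, the library with the highest count of the 3 for Tbc1d15, Keap1 and Bach1, both contrasts passed (adjusted p = 0.0217 and 0.0304), as did Keap1 against DMSO (adjusted p = 0.0431) and Bach1 against EtOH (adjusted p = 0.0260).

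**Figure D2:**
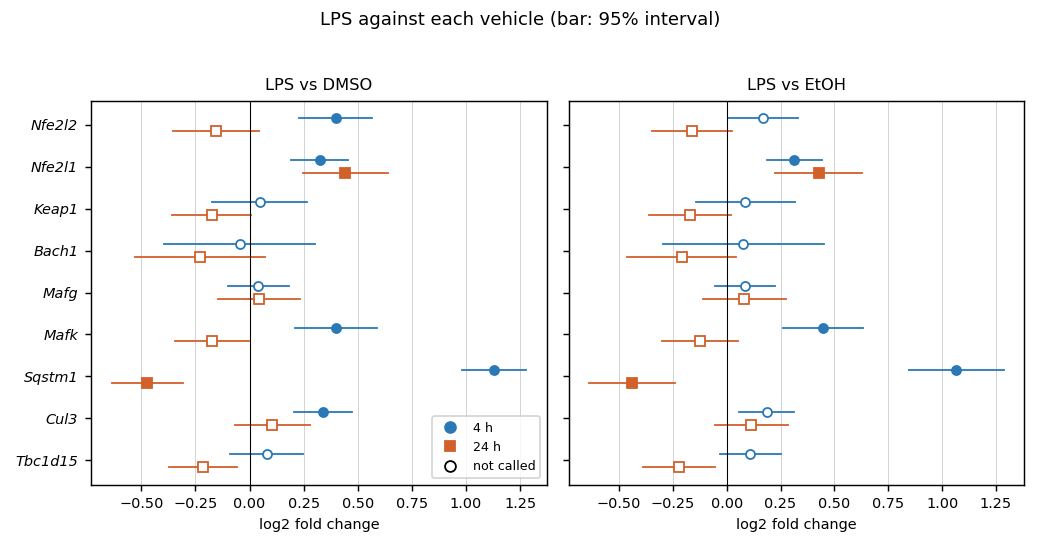
Log2 fold change of each gene in LPS against DMSO (left) and EtOH (right) at 4 h (blue circles) and 24 h (orange squares), with bars for the 95% interval and filled symbols for called genes. Sqstm1 lies at 1.13 and 1.07 at 4 h and at -0.47 and -0.44 at 24 h, and both panels use the same LPS libraries.

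The change of LPS with time was tested as an interaction over 12 libraries, which asks whether the difference from a vehicle at 24 h departs from that at 4 h. Against DMSO, 0 members were called higher and 3 lower, beside 9.69% of all genes, and against EtOH also 0 and 3, beside 9.26%. Sqstm1 shifted most, by -1.62 ± 0.10 against DMSO (adjusted p = 1.04e-06) and -1.52 ± 0.14 against EtOH (adjusted p = 9.71e-05). Mafk gave -0.59 ± 0.11 (adjusted p = 0.00572) and -0.58 ± 0.11 (adjusted p = 0.00552). The third member called was Nfe2l2 against DMSO (-0.57 ± 0.12, adjusted p = 0.0122) and Tbc1d15 against EtOH (-0.34 ± 0.09, adjusted p = 0.0352). The call for Tbc1d15 was lost in 9 of 12 fits that left out 1 library (adjusted p up to 0.0903, without LPS replicate 3 at 24 h). Tbc1d15 against DMSO was at adjusted p = 0.0638 and passed without LPS replicate 2 of either time (adjusted p = 0.0467 at 24 h and 0.0396 at 4 h), and Nfe2l2 against EtOH was at adjusted p = 0.0747 and passed without LPS replicate 2 at 24 h (adjusted p = 0.0473).

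The next question was how DMF, the dimethyl ester of fumaric acid, changed the system in LPS-treated cells. At 4 h Bach1, Sqstm1, Mafg and Mafk were higher with DMF than in LPS alone, and Nfe2l2 was lower. The genes of the repressor and of both small Maf partners therefore moved opposite to the gene of Nrf2. Of 9 members 4 were higher and 1 lower, beside 11.1% of all genes called, with a median change of 0.23 in the members and 0.01 over all genes. The LPS libraries serve as the control of all 3 drugs, so the drug contrasts are not independent of each other. The vehicle that accompanied LPS alone is not stated. A difference between a drug and LPS alone therefore cannot be told apart from one of solvent, which was not tested. This holds for every contrast of a drug with LPS alone below.

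Bach1 counts at 4 h were 530.3, 744 and 612 in LPS and 1307, 1776 and 1679 in LPS with DMF. The lowest DMF library was well above the highest LPS library. The change was 1.33 ± 0.15, with a 95% interval from 0.99 to 1.68 (adjusted p = 0.000917). Per length, Bach1 rose from 22.9 ± 2.72 to 56.9 ± 10.0 TPM (SD, n = 3).

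Sqstm1 counts were 24409.7, 27075 and 24400.1 with DMF at 4 h. These were all above the LPS libraries, which had themselves risen above the vehicles. The change was 1.18 ± 0.09 (adjusted p = 0.000123), and the mean level was 802 ± 56.3 TPM with DMF against 362 ± 10.7 TPM in LPS. Mafg counts were 3558, 3753 and 3541 in LPS and 5608, 6429 and 6439 with DMF, again without overlap, a change of 0.76 ± 0.09 (adjusted p = 0.000889).

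Mafk counts were 1773, 2028 and 2079.5 with DMF at 4 h, above the 1438, 1645 and 1416 of LPS. Its change was 0.38 ± 0.10 (adjusted p = 0.0398). Nfe2l2 counts were 2397, 2157 and 2205 with DMF, below all 3 LPS libraries (3018, 2662 and 2774) and inside the range of the vehicles at that time. The change of Nfe2l2 was -0.33 ± 0.08 (adjusted p = 0.0389). Both calls were close to the threshold. Leaving out DMF replicate 2 or 3 or LPS replicate 1 or 3 lost each of them, with adjusted p of 0.0909, 0.159, 0.142 and 0.150 for Nfe2l2 and 0.0934, 0.169, 0.128 and 0.190 for Mafk. With no filter on low values they stood at adjusted p of 0.0529 and 0.0516.

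Keap1 counts with DMF at 4 h were 1692, 2187 and 1906, overlapping those of LPS (1448, 1855 and 1604), with a change of 0.23 ± 0.13 (adjusted p = 0.301). Within each replicate number the DMF library was the higher one, and with replicate number as a block the adjusted p was 0.0846. In 8 of 8 groups with LPS, replicate 2 had the highest Keap1 count, so that the spread of this gene followed the replicate number. Nfe2l1 (0.09 ± 0.10), Cul3 (0.10 ± 0.07) and Tbc1d15 (0.05 ± 0.10) gave adjusted p values from 0.467 to 0.827. As a result of the opposite moves, the Bach1 level per length was 0.533 ± 0.110 of the Nfe2l2 level with DMF and 0.169 ± 0.0390 in LPS (SD, n = 3), with no overlap between libraries.

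At 24 h DMF raised 5 of 9 members and lowered 0, beside 25.1% of all genes called, with a median change of 0.27 in the members and -0.01 over all genes. Sqstm1 and Bach1 were again higher, and the genes of both Nrf factors and Mafk were higher too. Sqstm1 counts were 9563, 8691 and 9069.6 in LPS and 16426, 21436 and 23619 with DMF. The DMF libraries had the widest spread of any group for Sqstm1 (coefficient of variation 18.0%) but all lay above LPS, by 1.15 ± 0.12 (adjusted p = 0.000226). Bach1 counts rose from 779, 1057 and 851 to 1184, 1574 and 1444, a change of 0.65 ± 0.13 (adjusted p = 0.00522).

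Nfe2l1 counts with DMF at 24 h were 7520.0, 8751 and 8645, against 5072, 6171 and 5784 in LPS. No library overlapped, and the change was 0.55 ± 0.09 (adjusted p = 0.00207). Nfe2l2 counts were 1872, 2269 and 2205 in LPS and 2421, 2688 and 2508 with DMF, a change of 0.27 ± 0.08 (adjusted p = 0.0409). This call was lost without DMF replicate 2 or 3 (adjusted p = 0.144 and 0.115) or LPS replicate 1 or 3 (adjusted p = 0.113 and 0.0769).

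Mafk counts at 24 h were 1197, 1042 and 1079 in LPS and 1344, 1439 and 1486 with DMF, so the groups stood apart. Its change was 0.36 ± 0.08 (adjusted p = 0.0106), and the call was lost without DMF replicate 3 (adjusted p = 0.0624) or LPS replicate 3 (adjusted p = 0.0507). Mafg counts were 3909, 4732 and 3871 in LPS and 4783, 4988 and 4860.0 with DMF. LPS replicate 2 came close to the DMF libraries. The change of 0.23 ± 0.08 missed the threshold (adjusted p = 0.0641), and passed with replicate number as a block (adjusted p = 0.0125) and without LPS replicate 2 (adjusted p = 0.00618). Keap1 (0.12 ± 0.09), Cul3 (-0.13 ± 0.07) and Tbc1d15 (0.11 ± 0.08) were not called, with adjusted p values of 0.350, 0.223 and 0.324. Keap1 was again higher with DMF within each replicate number, at an adjusted p of 0.135 with the block.

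The effect of DMF itself differed between the times for 4 members, 2 shifting up and 2 down, beside 16.8% of all genes. Nfe2l2 turned from lower at 4 h to higher at 24 h, a difference of 0.59 ± 0.12 (adjusted p = 0.00544). Nfe2l1 gained 0.46 ± 0.14 (adjusted p = 0.0344), while the DMF effect was smaller at 24 h for Mafg (-0.53 ± 0.12, adjusted p = 0.00965) and Bach1 (-0.69 ± 0.22, adjusted p = 0.0432). Sqstm1 gave -0.03 ± 0.16, with an interval from -0.37 to 0.31. The calls for Nfe2l1 and Bach1 were lost in 7 and 8 of the 12 fits that left out 1 library, with adjusted p up to 0.0903 (without DMF replicate 2 at 24 h) and 0.0989 (without LPS replicate 1 at 4 h).

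MMF is the monoester that remains when DMF loses 1 methyl group, and it was given at the same dose. No member was called with MMF at 4 h by limma (0 of 9, beside 0.122% of all genes). At an unadjusted p under 0.05 there were 5 members, beside 843 of 11431 genes. There edgeR called 0 members and DESeq2 called 2 (beside 0.303% of all genes), which were Nfe2l2 (adjusted p = 0.00810) and Sqstm1 (adjusted p = 0.0409). Nfe2l2 counts were 2288, 2001 and 1992 with MMF, all below those of LPS, a change of -0.42 ± 0.08 (limma adjusted p = 0.216). Bach1 counts were 787, 999 and 867, all above those of LPS, a change of 0.50 ± 0.14 (adjusted p = 0.419).

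Sqstm1 counts of 13262, 14684 and 13720.2 with MMF at 4 h also lay above LPS, with a change of 0.32 ± 0.08 (adjusted p = 0.391). Mafg gave 0.24 ± 0.08 (adjusted p = 0.537) and Cul3 -0.21 ± 0.07 (adjusted p = 0.532), each without overlap between the groups. For Keap1 (0.04), Mafk (0.05), Nfe2l1 (0.10) and Tbc1d15 (-0.12) the 95% intervals included 0. The members' median was 0.05 and that of all genes 0.00.

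At 24 h with MMF, limma again called 0 of 9 members, beside 0% of all genes, and 0 were called by edgeR or DESeq2. At an unadjusted p under 0.05 there was 1 member, beside 440 of 11584 genes. That member was Sqstm1, with counts of 10734, 10089 and 10567 against 9563, 8691 and 9069.6 in LPS. The change was 0.20 ± 0.07 (adjusted p near 1 without the block, and 0.0298 with replicate number as a block, where 1.78% of all genes were called). The other members lay between -0.07 (Nfe2l2 and Tbc1d15) and 0.13 (Keap1). The difference of the MMF effect between the times was called for 0 of 9 members, beside 0% of all genes, and for 0 by edgeR or DESeq2. At an unadjusted p under 0.05 there was 1 member (Nfe2l2, 0.36 ± 0.12), beside 373 of 11448 genes.

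DMF and MMF were then compared directly, since they differ by 1 methyl ester and shared dose, time and LPS. This pair was tested at both times for all 9 members, with p adjusted over all genes. At 4 h Sqstm1, Bach1, Mafg and Cul3 were higher with DMF, so that 4 members were higher and 0 lower, beside 8.34% of all genes. Sqstm1 differed by 0.86 ± 0.09 (adjusted p = 0.000805), Bach1 by 0.83 ± 0.14 (adjusted p = 0.00625) and Mafg by 0.52 ± 0.09 (adjusted p = 0.00937). In each of them the lowest DMF library exceeded the highest MMF library, at 24400.1 against 14684 for Sqstm1, 1307 against 999 for Bach1 and 5608 against 4503 for Mafg. Without DMF replicate 3 the call for Mafg was lost (adjusted p = 0.0554).

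Cul3 counts at 4 h were 2957, 2790.3 and 2921 with DMF and 2332, 2350.5 and 2243 with MMF. These did not overlap, and the difference was 0.32 ± 0.08 (adjusted p = 0.0342), though it was lost without DMF replicate 3 (adjusted p = 0.133) or any MMF replicate (0.103, 0.0857 and 0.119). For Mafk the difference was 0.33 ± 0.10 (adjusted p = 0.0683). It was called by DESeq2 (adjusted p = 0.0388), in the fit over all 36 libraries (0.000851), with replicate number as a block (0.0365) and without DMF replicate 1 (0.0337). No difference was detected in Nfe2l2, at 0.10 with a 95% interval from -0.10 to 0.30, nor in Keap1 (0.19, from -0.08 to 0.47), Nfe2l1 (-0.01, from -0.22 to 0.20) or Tbc1d15 (0.17, from -0.07 to 0.41).

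At 24 h 5 members were higher with DMF than with MMF and 0 lower, beside 21.5% of all genes. These were Sqstm1 (0.95 ± 0.12, adjusted p = 0.000942), Nfe2l1 (0.54 ± 0.08, adjusted p = 0.00242), Mafk (0.41 ± 0.07, adjusted p = 0.00493), Nfe2l2 (0.34 ± 0.06, adjusted p = 0.00623) and Bach1 (0.54 ± 0.13, adjusted p = 0.0214). Groups did not overlap in any of the 5. Nfe2l2, for example, was read at 2421, 2688 and 2508 with DMF and at 1967, 2063 and 1982 with MMF. The call for Bach1 was lost without DMF replicate 2 or 3 (adjusted p = 0.0644 and 0.0922) or MMF replicate 1 or 3 (0.0761 and 0.0860).

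Mafg at 24 h differed between the fumarates by 0.14 ± 0.06 (adjusted p = 0.140) and Tbc1d15 by 0.18 ± 0.07 (adjusted p = 0.0864). With replicate number as a block these passed, at adjusted p of 0.0276 and 0.0149, and so did Mafg without MMF replicate 2 (0.0395) and Tbc1d15 without DMF replicate 1 (0.0334). Keap1 differed by -0.02, with an interval from -0.22 to 0.19, and Cul3 by -0.08, from -0.22 to 0.06.

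**Figure D3:**
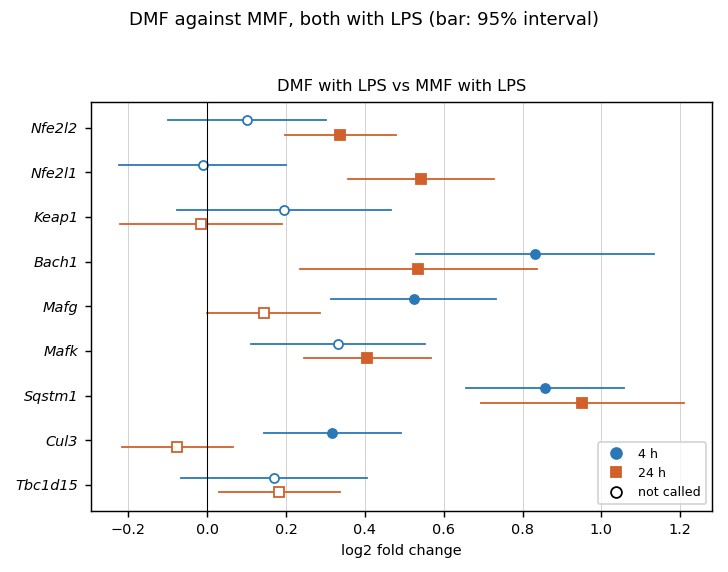
Log2 fold change of each gene in LPS with DMF against LPS with MMF at 4 h (blue circles) and 24 h (orange squares), with bars for the 95% interval and filled symbols for called genes. Sqstm1 lies highest at both times, at 0.86 and 0.95, and the intervals of Keap1 include 0 at both.

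CBD, a plant cannabinoid, was given at another dose and in another solvent, and its values are set beside those of the fumarates without a test between them. At 4 h limma called 0 of 9 members with CBD, beside 0.00875% of all genes, and 0 were called by edgeR or DESeq2. At an unadjusted p under 0.05 there was 1 member, beside 363 of 11424 genes. That member was Sqstm1, with counts of 9646, 10084 and 9172 that were all below LPS (-0.20 ± 0.07, adjusted p = 0.994). The remaining members lay between -0.15 (Tbc1d15) and 0.07 (Nfe2l1 and Mafk).

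By 24 h CBD had changed all members other than Keap1, with 7 higher and 1 lower, although 48.7% of all genes were called in that contrast. Sqstm1 showed the largest change of any member in any contrast of a pair of groups. Its counts were 46295, 41753 and 56038 with CBD and 9563, 8691 and 9069.6 in LPS. The lowest CBD library was above all other libraries of the study, and the change was 2.39 ± 0.12, with an interval from 2.13 to 2.66 (adjusted p = 2.78e-06). Per length this was 1659 ± 283 TPM against 309.9 ± 24.8 TPM (SD, n = 3).

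Nfe2l1 counts were 10321, 11190.3 and 10934 with CBD at 24 h, above every library of every other group. The change from LPS was 0.94 ± 0.09 (adjusted p = 4.30e-05), beside 0.55 ± 0.09 with DMF at that time. Mafk rose by 0.50 ± 0.08 (adjusted p = 0.000999), with counts of 1504, 1570.4 and 1601 against 1197, 1042 and 1079. Tbc1d15 counts were 1656, 1773 and 1594 in LPS and 2100.4, 2174 and 2262 with CBD, a change of 0.38 ± 0.07 (adjusted p = 0.00241). The Tbc1d15 groups did not overlap, and neither DMF nor MMF gave a called change of this gene.

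Cul3 was the member that fell, from 2060.5, 2304 and 2071 in LPS to 1671, 1775 and 1689 with CBD. All CBD libraries were lower, by -0.32 ± 0.08 on the log2 scale (adjusted p = 0.00659). Keap1 counts were 1237, 1341 and 1052, overlapping LPS (1197, 1419 and 1283), with a change of -0.10 ± 0.10 (adjusted p = 0.441).

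The remaining increases with CBD at 24 h were smaller and less stable. Bach1 counts were 1056, 1232 and 1291 (0.42 ± 0.12, adjusted p = 0.0170), Nfe2l2 counts 2667, 2681 and 2329.9 (0.28 ± 0.09, adjusted p = 0.0319) and Mafg counts 4885, 4800.2 and 5083 (0.25 ± 0.09, adjusted p = 0.0426). In Mafg and Nfe2l2 the gap to the highest LPS library was narrow, and in Bach1 the lowest CBD library was level with it in the jointly scaled counts. The call for Bach1 was lost without CBD replicate 3 (adjusted p = 0.0619) or LPS replicate 1 or 3 (0.0612 and 0.0661). That for Nfe2l2 was lost without CBD replicate 1 or 2 (0.102 and 0.0832) or LPS replicate 1 or 3 (0.105 and 0.0592). That for Mafg was lost without any CBD replicate (0.0904, 0.0582 and 0.109), without LPS replicate 1 or 3 (0.121 and 0.166), and with no filter on low values (0.0583).

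**Figure D4:**
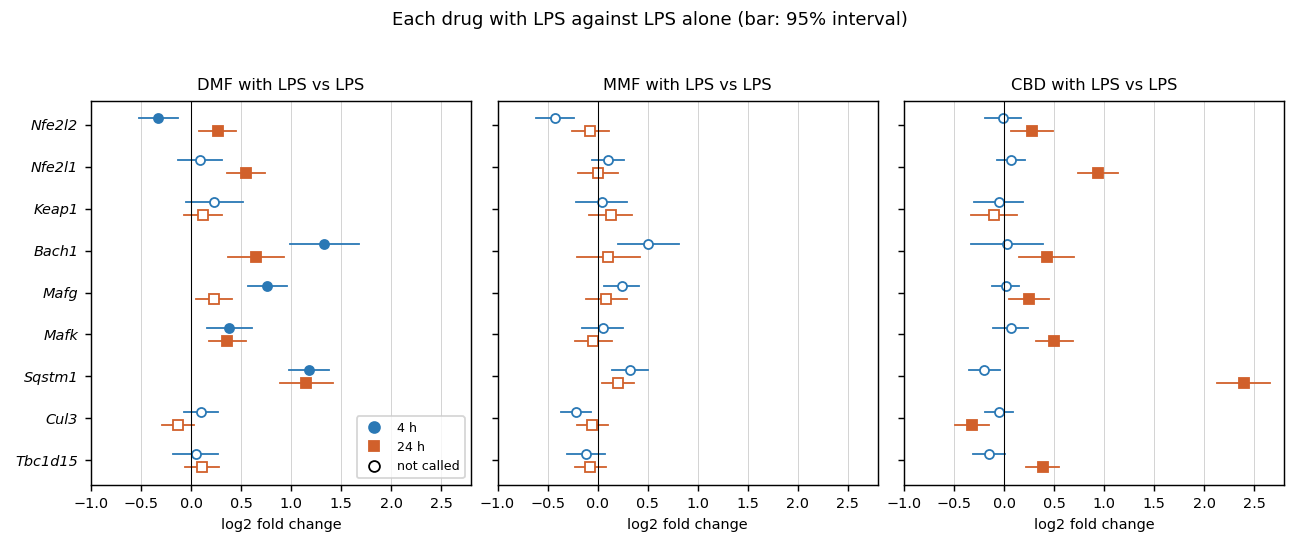
Log2 fold change of each gene with DMF, MMF or CBD, each with LPS, against LPS alone at 4 h (blue circles) and 24 h (orange squares), with bars for the 95% interval and filled symbols for called genes. Sqstm1 reaches 1.18 and 1.15 with DMF and 2.39 with CBD at 24 h, and no symbol is filled for MMF.

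For CBD the difference between 24 h and 4 h was called in 5 members, 4 shifting up and 1 down, beside 32.9% of all genes. The shift was 2.60 ± 0.14 for Sqstm1 (adjusted p = 6.23e-07), 0.87 ± 0.11 for Nfe2l1 (adjusted p = 7.21e-05), 0.54 ± 0.10 for Tbc1d15 (adjusted p = 0.00111) and 0.44 ± 0.11 for Mafk (adjusted p = 0.00768). Cul3 shifted by -0.27 ± 0.09 (adjusted p = 0.0406), a call lost in 8 of the 12 fits without 1 library (adjusted p up to 0.0927, without LPS replicate 3 at 4 h). Bach1 at 0.40 ± 0.22 was not called (adjusted p = 0.177), but passed with replicate number as a block (adjusted p = 0.0142). Pairing was not examined over these 12 libraries, and CBD at 24 h against 4 h did not meet the rule for pairing given below (lowest correlation 0.0308). Mafg at 0.24 ± 0.11 (adjusted p = 0.116) passed without LPS replicate 2 at 24 h (adjusted p = 0.0131).

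Levels also moved between 4 h and 24 h within each treatment, including the vehicles, and these contrasts are given as the background of culture time. Called members were 4 higher and 0 lower in DMSO (51.6% of all genes called), 5 and 1 in EtOH (58.6%), 2 and 5 in LPS (48.9%), 1 and 5 with DMF (58.8%), 1 and 2 with MMF (49.5%) and 5 and 2 with CBD (63.2%). With most genes called in several of these contrasts, the sizes are given rather than read from the calls. Sqstm1 rose by 1.31 ± 0.06 in DMSO (adjusted p = 1.08e-06) and 1.21 ± 0.10 in EtOH (adjusted p = 1.32e-05), and by 2.30 ± 0.11 with CBD (adjusted p = 6.13e-07). It fell in LPS (-0.30 ± 0.09, adjusted p = 0.0166), with DMF (-0.33 ± 0.13, adjusted p = 0.0472) and with MMF (-0.41 ± 0.08, adjusted p = 0.00115). The DMF call was lost without DMF replicate 1 or 2 at 24 h (adjusted p = 0.172 and 0.0661) and without any DMF replicate at 4 h (0.0569, 0.102 and 0.0788), with edgeR (0.0594), with another scaling (0.0512) and with no filter (0.0801). That in LPS was lost without LPS replicate 3 at 24 h (0.0614).

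Nfe2l1 rose from 4 h to 24 h in each of the 6 treatments, from 0.29 in both vehicles to 0.87 with DMF and 1.28 with CBD. Bach1 rose in DMSO (0.69 ± 0.13), EtOH (0.79 ± 0.12), LPS (0.51 ± 0.14) and CBD (0.90 ± 0.13). Its change was -0.18 with DMF and 0.12 with MMF, both uncalled. With DMF its mean at 4 h was 1587 normalized counts, against 628 in LPS. The call for Bach1 in LPS was lost without replicate 2 at 24 h (adjusted p = 0.0614), and with DMF the fall was called without DMF replicate 1 at 4 h (adjusted p = 0.0420), as was a rise of Nfe2l2 (adjusted p = 0.0348).

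Nfe2l2 fell with time in LPS (-0.42 ± 0.09, adjusted p = 0.00466) and was uncalled elsewhere, between -0.13 with CBD and 0.17 with DMF. Mafk fell in LPS (-0.44), with DMF (-0.47) and with MMF (-0.54), while its change was -0.01 with CBD. Mafg rose in both vehicles (0.19 in each) and with CBD (0.43) and fell with DMF (-0.34). Its calls were lost in DMSO without replicate 5 or 6 at 24 h (adjusted p = 0.0603 and 0.0538) or 6 at 4 h (0.0686), and in EtOH without replicate 4 at 4 h (0.0712).

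Keap1 fell in LPS (-0.33), with DMF (-0.46) and with CBD (-0.38), and Cul3 fell in EtOH (-0.27), LPS (-0.33), DMF (-0.56) and CBD (-0.60). With MMF the changes of Keap1 (-0.24) and Cul3 (-0.17) missed the threshold (adjusted p = 0.0788 and 0.0688). Both passed with replicate number as a block (adjusted p = 0.00909 and 0.0386), in a fit that called 56.0% of all genes. Cul3 also passed in the fit over all 36 libraries (0.0162), and Keap1 without MMF replicate 2 at 24 h (0.0228) or 3 at 4 h (0.0467). The fall of Keap1 in LPS was lost without LPS replicate 1 or 3 at 24 h (0.0798 and 0.0744) or 2 or 3 at 4 h (0.0559 and 0.0635). Tbc1d15 rose in EtOH (0.19) and with CBD (0.40). The former call was lost without EtOH replicate 5 or 6 at 24 h (0.0780 and 0.0573) or 4 or 5 at 4 h (0.0623 and 0.0604), and in DMSO the change of 0.16 was called without DMSO replicate 6 at 4 h (0.0426).

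**Figure D5:**
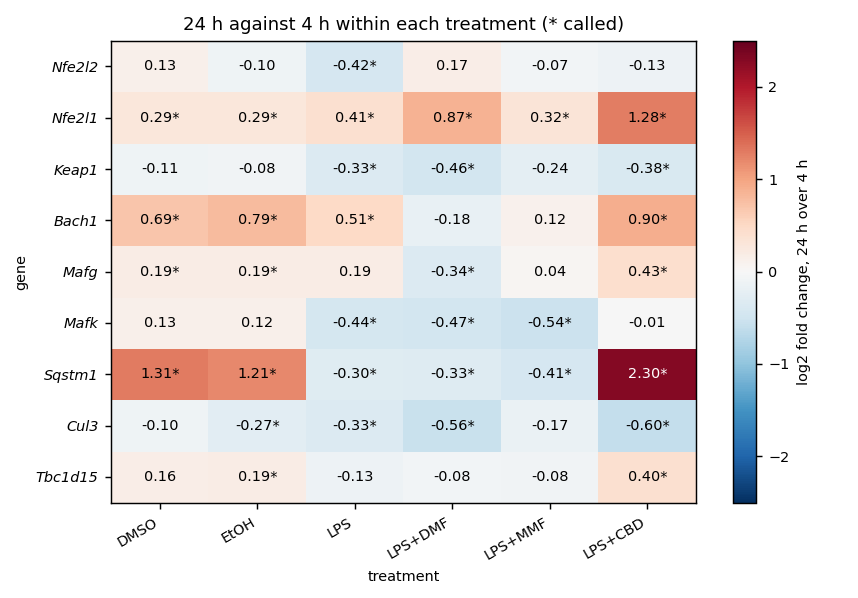
Heat map of the log2 fold change at 24 h over 4 h for each gene (vertical) within each treatment (horizontal), with the value in each cell and an asterisk where it was called. Nfe2l1 is positive and called in all 6 columns, and Sqstm1 changes sign between the vehicles (1.31 and 1.21), LPS (-0.30) and CBD (2.30).

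Members were also set against each other within libraries and across groups, as a description. The Nfe2l2 level per length was 1.24 ± 0.226 times that of Keap1 with DMF at 4 h, the lowest group, and 2.21 ± 0.116 times with CBD at 24 h, the highest (SD, n = 3). The ratio of Mafg to Mafk was lowest with CBD at 4 h (1.54 ± 0.0145) and highest with MMF at 24 h (2.73 ± 0.319). Over the 12 group means of log2 normalized counts, which share the LPS treatment in 8 cases, Pearson's r was 0.92 between Bach1 and Mafg, 0.84 between Keap1 and Cul3 and 0.81 between Sqstm1 and Mafg. Sqstm1 correlated with Nfe2l1 and with Bach1 at 0.79 each. For Nfe2l2 and the other members r ran from -0.22 with Bach1 and Mafg to 0.38 with Mafk.

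Among 10096 genes with a mean count of at least 50, those with the group pattern most like Sqstm1 were Atf4 (r = 0.97 over 12 groups), Zbtb21 and Rybp. For Bach1 these were Rnf183 (0.96), Ggps1 and Gpat3, for Mafg Pex13 (0.97), Ikbkg and Zscan29, and for Keap1 Sod1 (0.97), Mlf2 and Rrp1. The closest genes to Nfe2l2 were Itfg2 (0.80), Ppp3r1 and Egf.

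Replicate number left a mark on some members. Bach1 was lowest in replicate 1 in 8 of 8 groups with LPS and in replicate 4 in 4 of 4 vehicle groups. Nfe2l1 was also lowest in replicate 1 in 8 of 8 groups with LPS, and Keap1 was highest in replicate 2 in all of them.

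The wider pathway was followed through lists of known genes, counted by the calls of the same tests. Among target genes of Nrf2 and Bach1, 18 of 21 were higher and 0 lower with DMF at 4 h, beside 11.1% of all genes called, where Bach1 RNA rose and Nfe2l2 RNA fell. These included Hmox1, which breaks down haem (3.46 ± 0.15, adjusted p = 4.20e-06), the sulfiredoxin gene Srxn1 (3.46 ± 0.08), Gclm of glutathione synthesis (2.91 ± 0.12) and the cystine transporter Slc7a11 (2.75 ± 0.11). The median of the list was 1.44 and that of all genes 0.01. With MMF at 4 h 6 were higher and 0 lower, beside 0.122% of all genes, led by Slc7a11 (1.21), Srxn1 (1.11), Hmox1 (1.10) and Gclm (0.81), and with CBD at 4 h 0 were called by limma. Directly compared at 4 h, 19 of 21 were higher with DMF than with MMF and 0 lower, beside 8.34% of all genes.

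At 24 h the target list gave 10 higher and 1 lower of 21 with DMF, beside 25.1% of all genes, led by Nqo1 (1.66) and Slc7a11 (1.54), and 0 of 21 with MMF by limma. With CBD 11 of 21 were higher and 1 lower, a share near the 48.7% of all genes called there, with the largest changes in Srxn1 (1.46), Gstm1 (1.45), Hmox1 (1.44) and Slc7a11 (1.33). DMF against MMF gave 3 higher and 3 lower of 21 at that time, beside 21.5% of all genes. LPS alone at 4 h raised 4 of 20 targets against DMSO (14.1% of all genes called) and 2 of 21 against EtOH (10.2%), with Slc7a11 at 1.20 and 1.04. At 24 h it raised 7 of 20 against DMSO (22.7%) and 10 of 20 against EtOH (20.5%), while Osgin1 (-1.14 and -0.96) and Hmox1 (-0.62 and -0.60) were lower against both. Ftl1, Fth1, Prdx1 and Txn1 in this list have near-identical copies in the genome, so their values are less certain.

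Genes of selective autophagy and of Rab7 were followed because p62 and Tbc1d15 act there. With CBD at 24 h 9 of 12 were higher and 0 lower, beside 48.7% of all genes called, led by the autophagy receptor Optn (2.30 ± 0.22), the autophagosome protein genes Map1lc3b (95% interval from 0.84 to 1.16) and Gabarap (0.84 ± 0.09), and Tbc1d17 (0.74 ± 0.10), a relative of Tbc1d15. With DMF 2 of 12 were higher at 4 h (Gabarapl1, 1.06, and Map1lc3b, 0.50), a share not far above the 11.1% of all genes. At 24 h 3 were higher with DMF (Gabarap, 0.41, Tbc1d17, 0.37, and Map1lc3b, 0.33), a share near the 25.1% of all genes called. With MMF 0 were called at either time by limma. LPS at 24 h lowered 4 of 12 against each vehicle, beside 22.7% and 20.5% of all genes, among them Tbc1d17 (-0.58 and -0.56) and Map1lc3b (-0.48 and -0.44). At 4 h it lowered Ulk1 (-0.78 and -0.67).

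Genes of the turnover and processing of Nrf2 and Nrf1 proteins moved in mixed directions. With CBD at 24 h 5 of 19 were higher and 3 lower, no larger a share than the 48.7% of all genes called, with the largest changes in Palb2 (-0.77), the kinase gene Gsk3b (0.66), Trim21 (0.63) and the Cullin exchange factor gene Cand1 (-0.57). With DMF 1 was lower at 4 h (the ubiquitin ligase gene Trim21, -1.58), beside 11.1% of all genes, and 5 were higher and 1 lower at 24 h, beside 25.1%, led by the ligase gene Syvn1 (0.69) and Amer1 (-0.65). LPS at 4 h raised Trim21 by 1.68 against DMSO and 1.56 against EtOH. MMF gave 0 called genes of this list by limma at both times.

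Among the family relatives, Maff, the third small Maf, was higher with DMF at 4 h (0.88 ± 0.19) and with CBD at 24 h (0.45 ± 0.14) and lower in LPS at 24 h (-0.68 and -0.61). Bach2 was lower in LPS at 24 h (-1.42 and -1.53) and higher with CBD (2.31 ± 0.36). Nfe2 was higher in LPS at 24 h (1.92 and 2.02) and lower with DMF (-0.99), where Nfe2l3 was higher (1.53). Bach2, Nfe2 and Nfe2l3 failed the filter on low values in some contrasts, so their changes are less certain than those of the members. Bach2 failed it in every contrast between groups at 4 h, and Nfe2l3 in LPS against both vehicles and with CBD at 24 h.

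Markers of cell types moved in several of the same contrasts, and their part in these results was not tested. Of 12 microglial markers, 6 were higher in LPS at 24 h against DMSO (beside 22.7% of all genes called) and 7 against EtOH (20.5%), with 0 lower. Among the higher ones were Adgre1 (1.83 and 2.02) and Cx3cr1 (1.22 and 1.28). With DMF 4 were lower at 4 h (among them Cx3cr1, -1.93, and Spi1, -0.79), beside 11.1% of all genes. With DMF at 24 h 3 were higher (P2ry12, 0.72, Tmem119, 0.57, and Ptprc, 0.29), beside 25.1%. With CBD at 24 h 2 were higher (Cd68, 1.12, and Trem2, 0.37) and 4 lower (among them Cx3cr1, -4.09), beside 48.7%. The counts with DMF and CBD at 24 h were near the shares of all genes. The summed level of the 12 ran from 3688 to 3956 TPM in LPS and 3142 to 3373 TPM with DMF at 4 h. At 24 h it ran from 3418 to 4513 TPM in LPS, 3878 to 4599 TPM with DMF and 4652 to 5665 TPM with CBD. This sum mostly reflects the abundant Tyrobp and Cd68 (medians of 1280 and 1079 TPM) and not the 12 markers evenly. The medians of P2ry12, Aif1, Tmem119 and Cx3cr1 were 3.82, 4.69, 6.64 and 10.6 TPM.

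Single markers of other cell types also changed at 24 h. The neuronal gene Map2 was higher in LPS (1.07 against DMSO and 0.61 against EtOH) and lower with DMF (-1.48), and the endothelial gene Pecam1 was higher in LPS (1.10 and 0.67) and lower with DMF (-0.55) and CBD (-1.26). Mbp was lower with CBD (-0.69), and at 4 h it was lower in LPS (-0.31 and -0.37). Summed levels at 24 h in LPS, with DMF and with CBD lay between 1.06 and 4.42 TPM for the neuronal list, 0.162 and 0.570 TPM for the astrocyte list and 1.47 and 3.91 TPM for the list of endothelium and fibroblasts.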

How the data were processed

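RNA-seq of poly(A) RNA was analysed from 36 libraries in 12 groups of 3, grouped by the labels, which say that each experiment was repeated 3 times. Per the labels and the study's methods, the authors trimmed reads (FastQC 0.12.1, Cutadapt 4.4, Trimmomatic 0.39), aligned them to GRCm39 with HISAT2 2.2.1, counted them per Ensembl gene with HTSeq 2.0.3 and compared pairs of groups with DESeq2 1.40.2 in R 4.3.1. The strand setting of the counting is not given in the sources used here. They deposited 30 tables with a signal per library, which is the gene count divided by a DESeq2 size factor. The fold changes, test statistics and p-values in those tables are the authors' own comparisons and were not used. Whole reads could be recovered from 155 of 180 library columns, with 100% of 2695078 values within 0.01 of a whole number, and reads were then scaled jointly over 36 libraries for the counts shown per library. TPM used GENCODE exon lengths.

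Each pair of groups was tested with limma 3.58.1 (R 4.3.3, lmFit and eBayes with a trend) on log2(deposited normalized count + 1) of its 6 libraries, for genes at 10 or more in at least 3 of them. Differences between times were tested on the jointly scaled reads of 12 libraries, for genes at 10 or more in at least 6. Calls needed a Benjamini-Hochberg adjusted p below 0.05 over all genes. The named genes were the 9 members and, per list and comparison, at most 4 called genes with the largest absolute change. The members, the lists and the tests were chosen with earlier results of these data known. Alternatives were a pseudocount of 0.5, no filter, edgeR 4.0.16, DESeq2 1.42.0, TMM scaling, 1 fit over all 36 libraries, replicate number as a block, and leaving out each library. The limma fit was also run on simulated counts that held no effect of replicate number. That run does not cover such effects in these libraries. The full count of oligodendrocyte markers is not reported here.

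Replicate numbers were taken from the labels, as 1 to 3 in groups with LPS and 4 to 6 in the vehicles, which LPS and the vehicles therefore do not share. Numbers were taken to pair samples where every correlation of the same-numbered deviations exceeded 0.1. This held for DMF and CBD against LPS at both times, MMF against LPS and DMF against MMF at 24 h, the vehicles against each other, and 24 h against 4 h in LPS and MMF. It did not hold for MMF against LPS (lowest 0.0836) or DMF against MMF (lowest 0.0601) at 4 h, nor for the other contrasts of time. Libraries within a group were no copies of each other (chi-square per degree of freedom from 4.83 to 31.0 over 36 pairs).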

Additional observations from a re-analysis of the deposited data

Results flagged for a closer look

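Members whose response to a treatment differed between 24 h and 4 h, by the limma interaction test, are gathered here with the size of that difference (log2, response at 24 h minus response at 4 h). For LPS against DMSO these were Nfe2l2 (-0.57), Mafk (-0.59) and Sqstm1 (-1.62). For LPS against EtOH they were Mafk (-0.58), Sqstm1 (-1.52) and Tbc1d15 (-0.34). Both contrasts use the same LPS libraries. For DMF they were Nfe2l2 (0.59), Nfe2l1 (0.46), Bach1 (-0.69) and Mafg (-0.53), and for CBD Nfe2l1 (0.87), Mafk (0.44), Sqstm1 (2.60), Cul3 (-0.27) and Tbc1d15 (0.54). Those for Tbc1d15 against EtOH, for Nfe2l1 and Bach1 with DMF and for Cul3 with CBD did not hold without some libraries, as given above. Groups of 3 libraries were too small to test for a library that stood apart.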

How the results depend on the processing

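Over 3159 refits of a member in a comparison under another setting, 3006 kept the side of the threshold, 103 lost a call and 50 gained one. The direction reversed in 0 refits where either fit called the member. Where neither fit did, the direction was not compared. The counts of members called moved by over 1.5 times in these cases. With DMF at 4 h 3 were called without a filter on low values, beside 6.35% of all genes. With MMF at 4 h 2 were called with DESeq2 (Nfe2l2 and Sqstm1), beside 0.303% of all genes. The fit over all 36 libraries called 1 there (Nfe2l2), beside 0.442%. For the change of LPS against DMSO with time the fit over 36 libraries called 5, beside 11.7%, and for that of DMF no filter called 2, beside 8.99%. The fit over 36 libraries also called Cul3 in LPS against EtOH at 4 h (adjusted p = 0.0220) and, for changes with time, Nfe2l2 for LPS against EtOH (0.0460) and CBD (0.0389) and Cul3 for DMF (0.0307). The causes were not tested, beyond that no filter adds genes to the adjustment.

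The replicate block (a paired analysis by replicate number) called 2 members with MMF at 4 h (Nfe2l2, adjusted p = 0.00905, and Bach1, adjusted p = 0.00722), where the numbers did not meet the rule for pairing. That fit called 1.57% of all genes. It called 2 in DMSO against EtOH at 4 h (7.65% of all genes), 1 with MMF at 24 h (1.78%) and 5 in MMF at 24 h against 4 h (56.0%). Where numbers did not meet that rule it also added Mafk in DMF against MMF at 4 h and Tbc1d15 in DMSO over time (adjusted p = 0.0478). The other calls it added stand with the results, and it lost none. LPS and the vehicles share no numbers, so LPS against a vehicle at 1 time had no paired fit.

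Leaving out 1 library at a time gave 3 to 5 members called for LPS against DMSO and 1 to 3 against EtOH at 4 h, and 2 to 4 against each at 24 h. The range was 3 to 5 for DMF at 4 h and 3 to 6 at 24 h, 0 to 0 for MMF at both times and for CBD at 4 h, and 5 to 8 for CBD at 24 h. For DMF against MMF it was 2 to 5 at 4 h and 4 to 6 at 24 h, and for the vehicles 0 to 0 at both times. For 24 h against 4 h it was 3 to 4 in DMSO, 4 to 6 in EtOH, 5 to 7 in LPS, 5 to 7 with DMF, 3 to 4 with MMF and 7 to 7 with CBD. For the change with time it was 3 to 4 (LPS against DMSO), 2 to 4 (LPS against EtOH), 2 to 4 (DMF), 0 to 0 (MMF) and 4 to 5 (CBD). The share of all genes called in each of these fits is not given here. The ranges therefore do not separate the members from calling over all genes. A fit that left a group with 2 libraries used their spread together with that of the other group.

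With 3 libraries a group, the calls of Nfe2l2 with DMF (-0.33 and 0.27) and CBD (0.28) each rested on several single libraries. The part of depth in them was not tested, and the fewest Nfe2l2 reads in a library were 1697.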
